A study of Gallus gallus with 12 samples.

Results

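The chicken Müllerian duct had a set of 93 protein coding genes whose level peaked at embryonic day 6.5 (E6.5), the oldest of the stages sampled. The 93 genes were chosen by their measured levels in CPM, the count of a gene scaled by the total protein coding count of its library. A gene was taken when its mean in E6.5 duct was at least 5 CPM and at least 1.8 times the mean of each of the other 3 tissues. They made up 0.532% of the 17485 protein coding genes in the count table, and 0.81% of the 11487 genes that reached 5 CPM in E6.5 duct. The same limits set for another tissue took 36 genes for E4.5-Post, 90 for E4.5-Ant and 16 for E5.5 duct. Because the E6.5 level chose the genes, every comparison with E6.5 duct is given here as a description without a test, and tests were kept for the 3 comparisons that hold no E6.5 library.

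RNA was sequenced from 4 tissues of untreated Hy-Line Brown chicken embryos, with 3 libraries for each tissue. Within a tissue each library was made from a separate pool of embryos, and both E4.5 tissues came from the same pools. E4.5-Post was the posterior part of the E4.5 urogenital system, with mesonephros, mesentery and no Müllerian ridge. E4.5-Ant was the anterior part from the same embryos, with mesonephros, midline mesentery and the Müllerian ridge (5 embryos in a pool for both). E5.5 duct (3 embryos in a pool) and E6.5 duct (4 embryos in a pool) were dissected ducts with their surface epithelium, mesenchyme and Müllerian epithelium. Both sexes were pooled. At E5.5 and E6.5 only the duct was taken, so age and tissue cannot be told apart between a duct and an E4.5 tissue. In pooled tissue fewer cells of a type and less RNA in each cell cannot be told apart either. The cell type given for 1 E5.5 duct sample was posterior kidney, and the title decided its tissue.

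Protein coding counts were between 23899617 and 30921769 in 11 libraries. E4.5-Ant library 2 stood apart, with 42.1% of its counts in ribosomal RNA genes against 0.199% to 1.95% in the others, and 16902938 protein coding counts, and it was left out of group means and fits, as in the published processing. Among the rest, E5.5 duct library 2 lay farther from its replicates than any other kept library, with a chi-square per degree of freedom of 34.8 and 42.6 against the other E5.5 libraries, which differed from each other by 10.5. Genes that mark the urogenital ridge and its ducts were read in all tissues, among them PAX2 at 324 ± 15.4 CPM and WT1 at 450 ± 13.6 CPM in E6.5 duct (SD, n = 3). The 35 measured genes of the mesonephric nephron list summed to 4506 to 5406 CPM in E4.5-Post, 4489 to 4811 CPM in E4.5-Ant, 4487 to 4692 CPM in E5.5 duct and 4062 to 4747 CPM in E6.5 duct. Of the 33 tested, 11 were higher and 9 lower in E5.5 duct than in E4.5-Post, and 6 were higher and 5 lower in E5.5 duct than in E4.5-Ant. The Wolffian duct list, which includes PAX2, had 24 measured genes and no gene in the set. Its sum was 2051 to 2138 CPM in E4.5-Post and 1412 to 1510 CPM in E4.5-Ant. In E5.5 duct it was 2735 to 3242 CPM, and in E6.5 duct 3285 to 3495 CPM. Of its 23 tested genes, 6 were higher and 3 lower in E5.5 duct than in E4.5-Post. Against E4.5-Ant, 11 were higher and 0 lower in E5.5 duct. The part of either list in the results below was not tested.

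The Müllerian duct arises from the coelomic epithelium, first as a thickened ridge at the front of the mesonephros, then as an epithelial tube that grows backwards along the Wolffian duct within a mesenchyme of its own. Signals of the WNT and BMP families pass between the epithelium and the mesenchyme, and HOX genes set position along the tube. In female birds the left duct becomes the oviduct, which later secretes egg white and shell, while in males anti-Müllerian hormone acts through the mesenchyme to remove it.

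E5.5 duct had the next highest mean for 83 of the 93 genes, E4.5-Ant for 9 and E4.5-Post for 1. The E6.5 mean was between 1.8 and 10.08 times that next highest mean, with a median of 2.12. The ratio was 2 or more for 57 genes, 3 or more for 9 and 5 or more for 3. The genes just inside the ratio limit were COL1A2 (1.804), ADARB2 (1.807) and PGM5 (1.811), and those just outside were SEMA6D (1.799), COL15A1 (1.780) and MAP3K1 (1.778). Close inside the level limit were RASL11A (5.11 CPM) and LOC107050412 (5.22 CPM), and just outside it were LMO3 (4.98 CPM) and KIAA0040 (4.83 CPM). All 3 E6.5 libraries were above all 8 other libraries for 91 of the 93 genes, which follows from the choice, and for 12.4% of all genes at 5 CPM or more in E6.5 duct. The exceptions were HOXD13 and PRODH2, each with 1 E6.5 library at or below the highest E5.5 library.

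**Figure D1:**
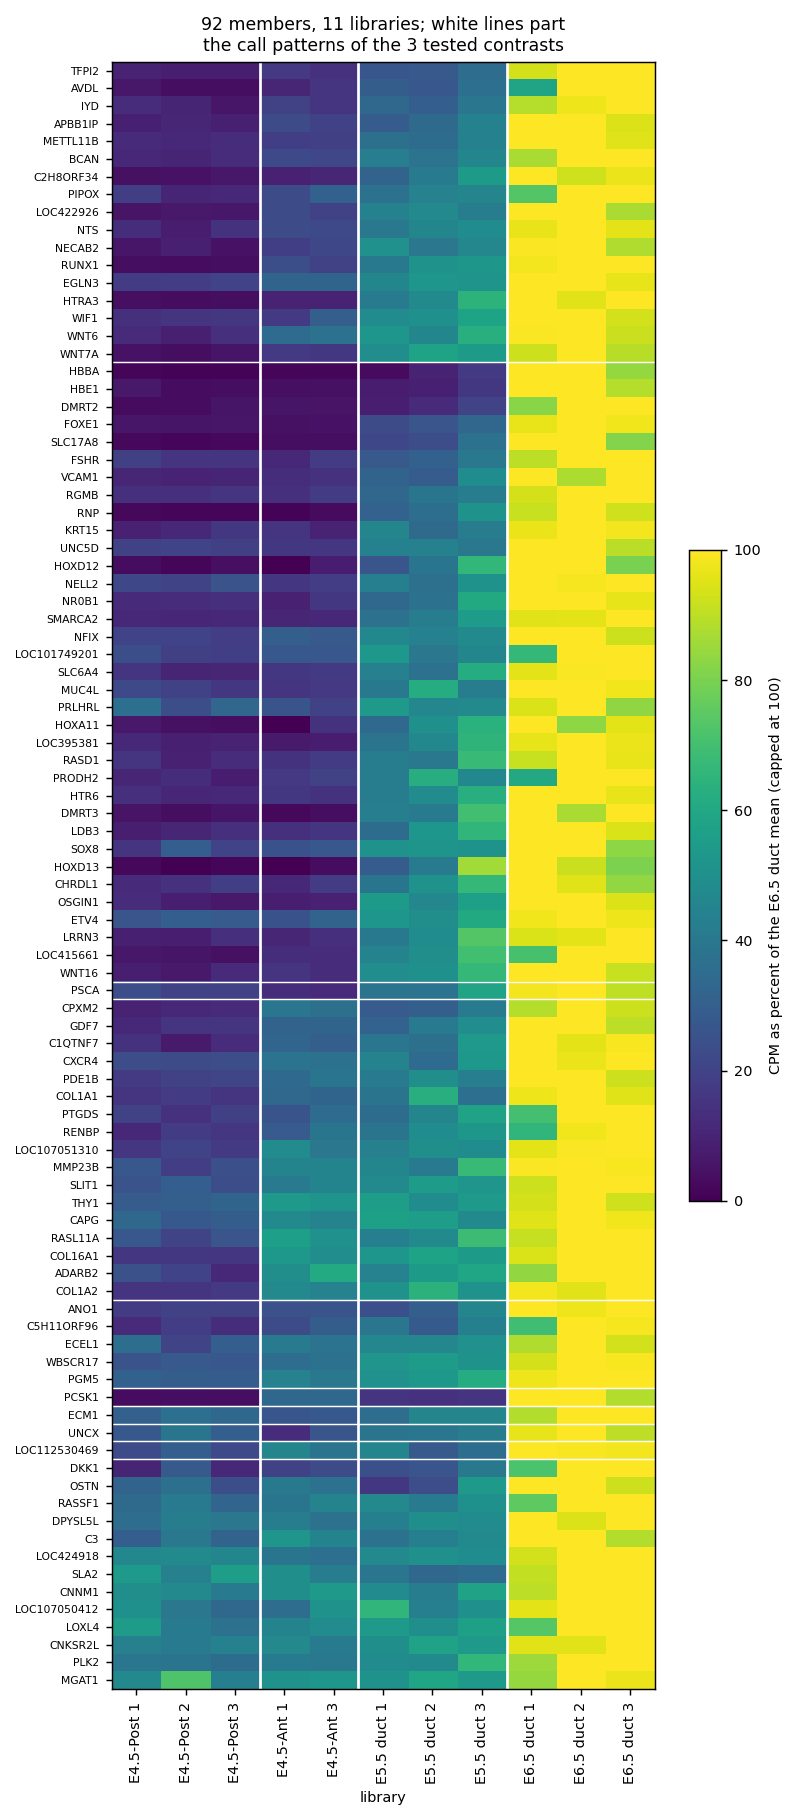
Level of 92 of the 93 genes (rows) in the 11 libraries (columns), as CPM in percent of the gene's E6.5 duct mean and capped at 100. White horizontal lines part groups of genes with the same calls in the 3 tested comparisons. The E6.5 columns are bright because the genes were chosen that way, while the E4.5 and E5.5 columns were free to differ from each other.

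Set against its E6.5 mean, the median gene of the set stood at 15% to 15.4% in the 3 E4.5-Post libraries, 22.9% and 24.8% in the 2 kept E4.5-Ant libraries, and 41.8%, 44.0% and 51.0% in E5.5 duct libraries 1, 2 and 3. Over all genes at 5 CPM or more in E6.5 duct the same median was between 96.5% and 102% in these libraries. The 93 genes took 1.07% to 1.13% of the protein coding counts in E6.5 duct and 0.158% to 0.534% in the other kept libraries. E5.5 duct library 3 was the highest of its 3 replicates for 65 of the 93 genes (69.9%), against 40.9% of all genes at that level, and library 1 was the lowest for 57 (61.3%), against 26.8% of all genes. The size of the set and its counts of called genes are therefore given with the range found when each library was left out. Counts of the set on gene lists are given without such a range. Without E5.5 duct library 1, 74 of the 93 genes stayed in the set. HOXA11, HOXD13, WNT7A, WNT16, COL1A2, COL16A1 and HTRA3 were among those lost.

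The comparisons without E6.5 duct asked whether these genes already differed between the earlier tissues. Each was fitted with edgeR over all 14362 genes that passed the filter on low counts, and a gene was called when its adjusted p (false discovery rate, FDR) was at most 0.05 and the change was at least 1.5-fold. All 93 genes passed that filter, and all 93 also passed it without the E6.5 libraries. In E5.5 duct against E4.5-Post, 77 of the 93 genes were higher (background over all tested genes 13.2%), and the median log2 fold change of the set was 1.57 against 0.01 over all tested genes. None was called lower by edgeR (background 5.79%), and none by DESeq2 or limma, while SLA2, an adaptor of antigen receptor signalling, was the 1 gene lower at an unadjusted p under 0.05. Its change of -0.49 (SE 0.160, edgeR FDR 0.0177) missed only the limit of 1.5-fold, and SLA2 was called lower without E4.5-Post library 2. OSTN was called lower without E5.5 duct library 3. In E5.5 duct against E4.5-Ant, 55 were higher (background 7.21%) and 1 was lower (background 5.24%), with a median of 0.99 against 0.00. In E4.5-Ant against E4.5-Post, 36 were higher (background 7.66%) and 2 were lower (background 3%), with a median of 0.47 against -0.02. The 3 comparisons share libraries pairwise and are not independent of each other. Leaving out 1 library at a time gave 76 to 79, 47 to 57 and 31 to 39 higher genes in these comparisons, in the order given. For every called gene of the set the libraries of the compared tissues did not overlap, and the same share over all called genes was not computed.

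**Figure D2:**
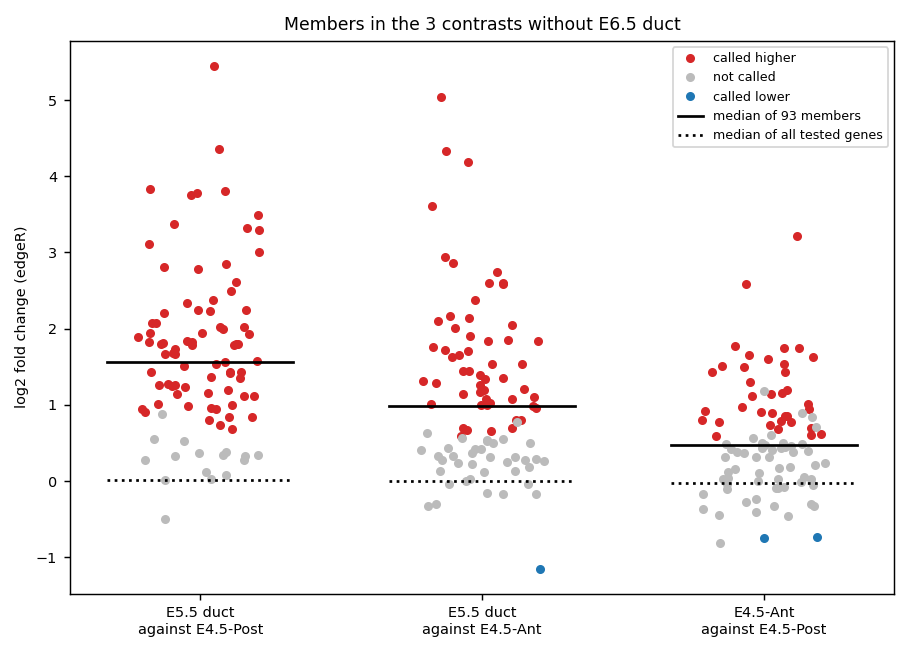
log2 fold change of each of the 93 genes (points) in the 3 comparisons that hold no E6.5 library, coloured by the edgeR call, with the median of the 93 genes (solid line) and of all 14362 tested genes (dotted line). The solid lines stand at 1.57, 0.99 and 0.47 and the dotted lines lie within 0.02 of 0.

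The largest ratios outside the hemoglobin genes belonged to the transcription factors DMRT2 (7.30) and FOXE1 (3.66). FOXE1, a forkhead factor known from thyroid development, had 10.8, 10.4 and 11.3 CPM in E4.5-Post, 8.07 and 8.95 CPM in E4.5-Ant, 42.8, 48.2 and 60.4 CPM in E5.5 duct, and 178, 196 and 180 CPM in E6.5 duct. E4.5-Ant lay below E4.5-Post in every kept library without being called (log2 fold change -0.37, SE 0.140, edgeR FDR 0.0593), and each duct stage stood clear of the stage before. FOXE1 was higher in E5.5 duct than in E4.5-Post by a log2 fold change of 2.23 (SE 0.107, edgeR FDR 3.74e-09). RUNX1, a factor best known from blood formation that is also used in epithelia, had 4.10, 3.79 and 4.16 CPM in E4.5-Post, 26.6 and 22.1 CPM in E4.5-Ant, 44.8, 56.9 and 58.8 CPM in E5.5 duct, and 109, 111 and 112 CPM in E6.5 duct. It separated all 4 tissues, and was higher in E4.5-Ant libraries than in E4.5-Post by 2.58 (SE 0.135, edgeR FDR 1.58e-08) and in E5.5 duct than in E4.5-Ant by 1.17 (SE 0.112, edgeR FDR 3.38e-06). The leukocyte and thrombocyte markers had a summed level of 386 to 426 CPM in E4.5-Post, 509 to 562 CPM in E4.5-Ant, 335 to 382 CPM in E5.5 duct and 369 to 390 CPM in E6.5 duct, and PTPRC, the common leukocyte antigen, averaged 5.89 CPM in E5.5 duct and 5.23 CPM in E6.5 duct. Their part in the RUNX1 values was not tested. Other factors in the set were NR0B1 (DAX1), the homeobox gene UNCX, the ETS factor ETV4, SOX8 and NFIX.

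**Figure D3:**
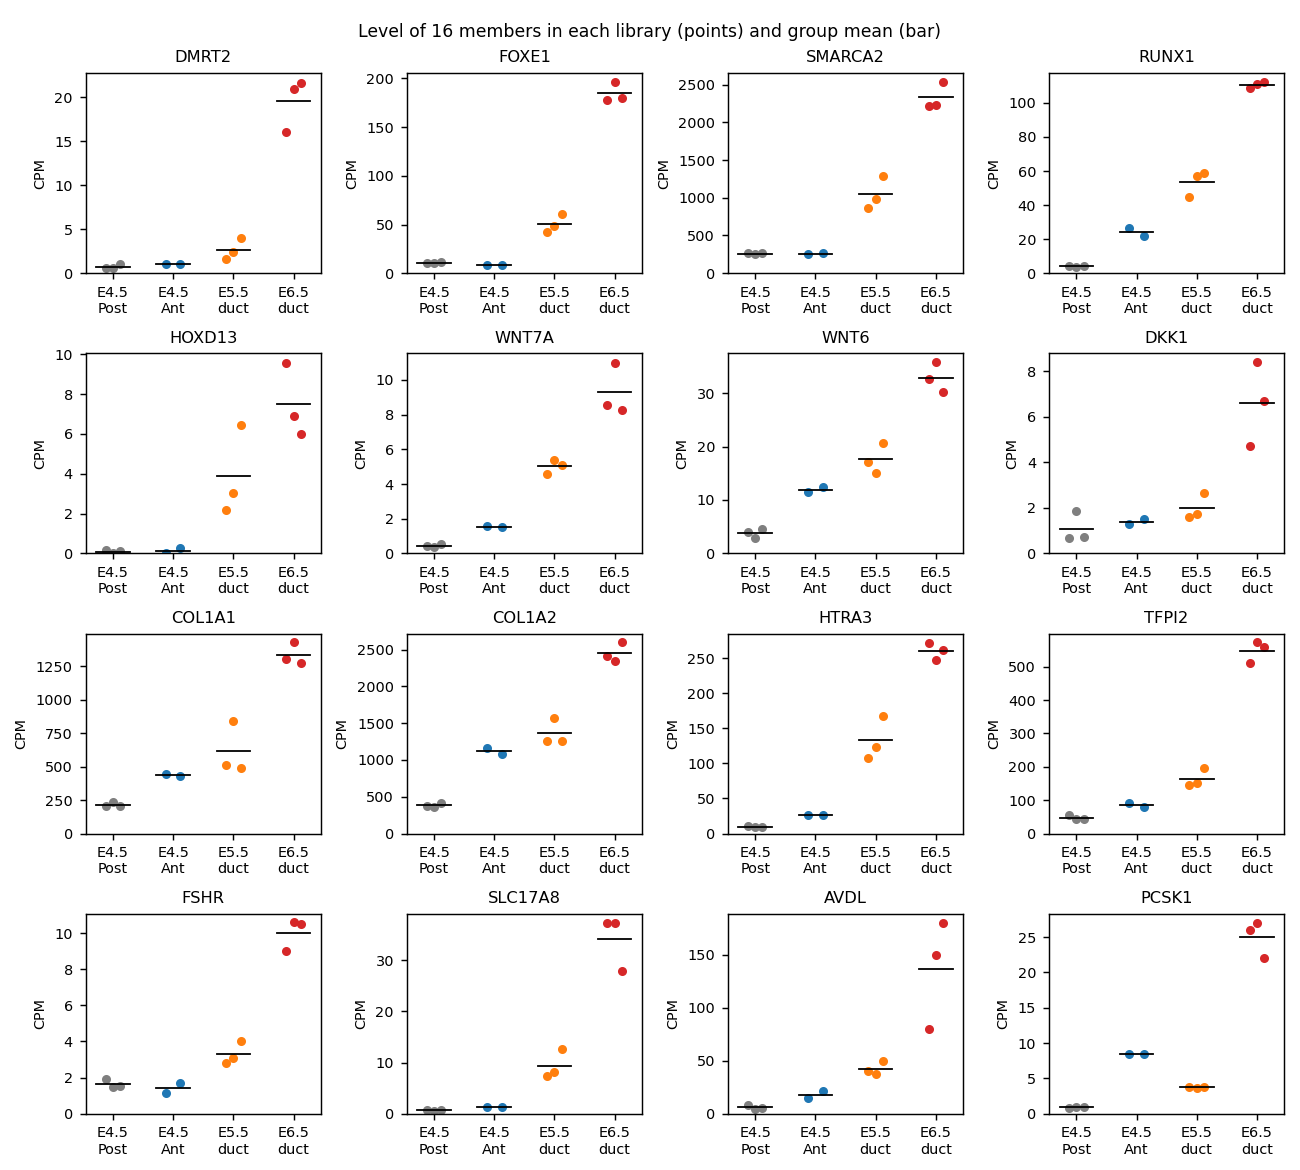
CPM of 16 of the 93 genes in each kept library (points, 3 per tissue and 2 for E4.5-Ant) with the mean of the tissue (bar), on linear axes from 0. DMRT2 and DKK1, like most of the genes shown, have their largest step in CPM at E6.5. RUNX1 and HTRA3 climb at each step, COL1A1 and COL1A2 are already higher in E4.5-Ant libraries than in E4.5-Post, and PCSK1 dips in E5.5 duct.

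SMARCA2 encodes BRM, an ATPase of the SWI/SNF complex, which moves nucleosomes. Its level was 272, 250 and 262 CPM in E4.5-Post, 254 and 263 CPM in E4.5-Ant, 867, 988 and 1289 CPM in E5.5 duct, and 2221, 2232 and 2536 CPM in E6.5 duct. E5.5 duct was higher than E4.5-Post by a log2 fold change of 2.02 (SE 0.114, edgeR FDR 1.23e-08), and the E4.5 tissues were not called different (-0.04, SE 0.124, edgeR FDR 0.861). SMARCA2 lies on chromosome Z at 26326600 to 26448676 (GRCg6a, plus strand), and the members next to it on its left are DMRT2 at 26043284 to 26048443 and DMRT3 at 26009162 to 26016878. DMRT genes encode DM domain factors, whose best known member DMRT1 directs testis formation in birds.

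DMRT2 had 0.559, 0.643 and 1.09 CPM in E4.5-Post, 1.09 and 1.05 CPM in E4.5-Ant, 1.62, 2.39 and 4.05 CPM in E5.5 duct, and 16.1, 21.0 and 21.7 CPM in E6.5 duct, a mean 7.30 times that of E5.5 duct. DMRT3 averaged 0.769 CPM in E4.5-Post, 0.452 CPM in E4.5-Ant, 7.98 CPM in E5.5 duct and 15.6 CPM in E6.5 duct, and was higher in E5.5 duct than in E4.5-Ant by 4.19 (SE 0.332, edgeR FDR 6.34e-07). As a ratio of means, the larger step within this run thus came at E5.5 for DMRT3 and SMARCA2 and at E6.5 for DMRT2. In CPM, DMRT3 gained about alike at both steps. SMARCA2 gained more CPM at E6.5, with means of 259 CPM in E4.5-Ant, 1048 CPM in E5.5 duct and 2330 CPM in E6.5 duct. The steps to E6.5 were not tested. DMRT1 itself, which lies beside DMRT3, had means of 3.71, 1.32, 10.4 and 18.3 CPM in E4.5-Post, E4.5-Ant, E5.5 duct and E6.5 duct and stayed outside the set at a ratio of 1.75. Beyond the run, KANK1 and VLDLR had ratios of 0.87 and 1.07.

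**Figure D4:**
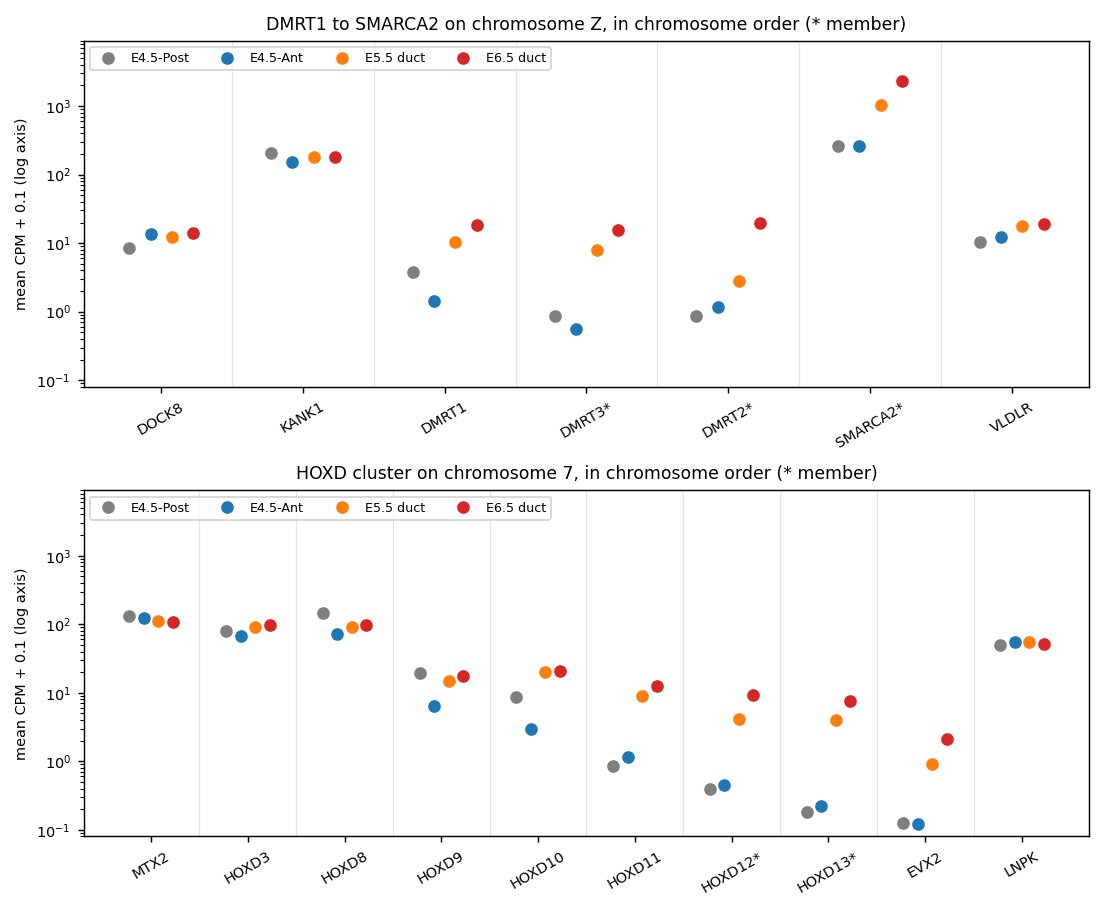
Mean CPM plus 0.1, on a log axis, of the genes around the DMRT run on chromosome Z and of the HOXD cluster on chromosome 7, in chromosome order, for the 4 tissues, leaving out genes under 1 CPM in E6.5 duct. Genes of the set carry an asterisk, and the E6.5 points of the flanking genes KANK1, MTX2 and LNPK lie close to those of the other tissues.

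Chromosome Z held 9 of the 93 genes (9.68%), against 4.67% of the genes at 5 CPM or more in E6.5 duct. Besides the 3 genes of that run these were FOXE1, AVDL, PCSK1, RGMB, PLK2 and PGM5. Male birds carry a pair of Z chromosomes and females a single one, and Z genes are only partly compensated, so the share of males in a pool moves Z genes together. The 536 Z genes at that level had a median of 95.3% to 106% of their E6.5 mean in the E6.5 libraries, 96.7% to 108% in E5.5 duct, and 96.1% to 108% in the kept E4.5 libraries. The part of sex in the levels of the Z members was not tested.

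HOX genes are laid out in clusters in the order in which they are used along the body, and the last genes of a cluster are active nearest the tail. In mice HOXA11 is needed in the part of the duct that becomes the uterus. 3 of the 18 genes on the posterior HOX list were in the set, and they were among the last genes of their clusters. HOXA11 had 1.19, 0.822 and 0.634 CPM in E4.5-Post, 0 and 2.64 CPM in E4.5-Ant, 6.05, 8.90 and 11.4 CPM in E5.5 duct, and 21.4, 14.8 and 17.1 CPM in E6.5 duct. HOXD12 had 0.298, 0.179 and 0.387 CPM in E4.5-Post, 0 and 0.711 CPM in E4.5-Ant, 2.43, 3.55 and 6.06 CPM in E5.5 duct, and 10.9, 9.26 and 7.32 CPM in E6.5 duct. All E5.5 and E6.5 libraries lay above all E4.5 libraries for both genes. HOXA11 was not called between the E4.5 tissues, but was called higher in E4.5-Ant without E4.5-Ant library 1 and lower without E4.5-Ant library 3.

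HOXD13 had 4, 0 and 3 counts in the E4.5-Post libraries and 0 and 6 counts in the kept E4.5-Ant libraries, against 2.17, 3.04 and 6.43 CPM in E5.5 duct. Its fitted change in E5.5 duct against E4.5-Post was a log2 fold change of 5.45 (SE 0.675, edgeR FDR 1.38e-05), the largest of the set, and against E4.5-Ant it was 5.03 (SE 0.762, edgeR FDR 0.000204), but the sizes rest on so few E4.5 counts that only the direction is well determined. The 9.57, 6.89 and 5.99 CPM of the E6.5 libraries overlapped with E5.5 duct library 3. HOXA13 showed the same pattern at a level below the limit, with means of 0.109, 0.0418, 1.16 and 2.57 CPM in E4.5-Post, E4.5-Ant, E5.5 duct and E6.5 duct.

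Earlier genes of the same clusters stayed below the ratio limit of 1.8. Along HOXD the ratio of the E6.5 mean to the next highest mean was 0.67 for HOXD8, 0.90 for HOXD9, 1.03 for HOXD10, 1.40 for HOXD11, 2.29 for HOXD12 and 1.93 for HOXD13. Of the 12 tested genes of the list outside the set, 11 were higher in E5.5 duct than in E4.5-Ant and 7 were lower in E4.5-Ant libraries than in E4.5-Post. Of the 12 genes, 6 were higher and 2 lower in E5.5 duct against E4.5-Post. Summed over the list the level was 325 to 336 CPM in E4.5-Post, 88.6 to 166 CPM in E4.5-Ant, 326 to 350 CPM in E5.5 duct and 340 to 370 CPM in E6.5 duct. The length of duct sampled and its age cannot be told apart here.

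WNT proteins are secreted ligands that act through frizzled receptors and β-catenin, and in mice WNT7A from the epithelium is needed for the duct to acquire its regions. The set held 5 of 71 WNT pathway genes, 3 of them ligands and 2 secreted inhibitors, and no receptor. WNT7A had 0.447, 0.357 and 0.528 CPM in E4.5-Post, 1.59 and 1.51 CPM in E4.5-Ant, 4.56, 5.39 and 5.08 CPM in E5.5 duct, and 8.58, 11 and 8.29 CPM in E6.5 duct. It was higher in E4.5-Ant libraries than in E4.5-Post by a log2 fold change of 1.77 (SE 0.264, edgeR FDR 0.00021) and in E5.5 duct than in E4.5-Ant by 1.72 (SE 0.192, edgeR FDR 1.32e-05), so it stepped up at every boundary tested. WNT6 averaged 3.82 CPM in E4.5-Post, 12 CPM in E4.5-Ant, 17.6 CPM in E5.5 duct and 32.8 CPM in E6.5 duct and was likewise called higher in all 3 comparisons. Its call in E5.5 duct against E4.5-Ant was at the fold limit (log2 fold change 0.59, SE 0.144, edgeR FDR 0.00651), and was lost with limma, with DESeq2, and without E4.5-Ant library 1 or E5.5 duct library 3. WNT16 averaged 14.3 CPM in E5.5 duct and 25.9 CPM in E6.5 duct, with 2.34 CPM in E4.5-Post and 3.61 CPM in E4.5-Ant.

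The inhibitors had different calls. WIF1, which binds WNT ligands, averaged 2.02 CPM in E4.5-Post, 3.20 CPM in E4.5-Ant, 7.05 CPM in E5.5 duct and 13.5 CPM in E6.5 duct and was called higher in all 3 comparisons. The call in E4.5-Ant against E4.5-Post (0.62, SE 0.213, edgeR FDR 0.0392) was lost with limma, with 2 tissues per fit, and without any 1 of E4.5-Ant library 3, the 3 E4.5-Post libraries and E6.5 duct libraries 2 and 3. DKK1, which blocks the LRP co-receptors, had 0.671, 1.86 and 0.740 CPM in E4.5-Post, 1.27 and 1.51 CPM in E4.5-Ant, 1.62, 1.74 and 2.67 CPM in E5.5 duct, and 4.73, 8.40 and 6.68 CPM in E6.5 duct. The E5.5 libraries lay above both E4.5-Ant libraries and overlapped with E4.5-Post. No earlier comparison called it (edgeR FDR 0.0507 in E5.5 duct against E4.5-Post, where DESeq2 and limma did call it), and its E6.5 mean was 3.29 times the next highest. Among the 61 tested pathway genes outside the set, 25 were higher and 2 lower in E5.5 duct than in E4.5-Post, and 20 were higher and 3 lower in E5.5 duct than in E4.5-Ant. APCDD1 and LGR5, a WNT inhibitor and a receptor of R-spondins, narrowly missed the set at ratios of 1.69 and 1.70, with E6.5 means of 587 and 264 CPM.

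The TGF-β and BMP list gave 2 of 62 genes. GDF7, a BMP ligand, averaged 12 CPM in E4.5-Ant and 15.3 CPM in E5.5 duct, with E4.5-Post at 5.18 CPM and E6.5 duct at 37.4 CPM. CHRDL1, a secreted BMP antagonist, had means of 5.77, 5.49, 20 and 38.4 CPM in E4.5-Post, E4.5-Ant, E5.5 duct and E6.5 duct. RGMB, a BMP co-receptor of the repulsive guidance family that was not on the list, had 26.0, 25.2 and 28.7 CPM in E4.5-Post, 26.1 and 32.6 CPM in E4.5-Ant, 61.8, 72.4 and 79.2 CPM in E5.5 duct, and 175, 197 and 190 CPM in E6.5 duct. GDF7 was higher in E4.5-Ant than E4.5-Post by a log2 fold change of 1.19 (SE 0.176, edgeR FDR 0.000191), and RGMB was higher in E5.5 duct than E4.5-Ant by 1.32 (SE 0.110, edgeR FDR 1.01e-06). From the FGF, EGF, HGF, PDGF and IGF list only ETV4 of 74 genes was in the set, and none of the 46 hedgehog, Notch and retinoid genes was.

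The extracellular matrix list gave 7 of 162 genes, and 5 of them were already higher in E4.5-Ant than E4.5-Post (COL1A1, COL1A2, COL16A1, MMP23B and HTRA3). In that comparison 7.66% of all tested genes and 38.7% of the set were higher, as were 60 of the 148 tested matrix genes outside the set. The fibrillar collagen gene COL1A1 had 207, 233 and 207 CPM in E4.5-Post, 448 and 432 CPM in E4.5-Ant, 515, 843 and 487 CPM in E5.5 duct, and 1304, 1434 and 1274 CPM in E6.5 duct. Its partner COL1A2 had 378, 366 and 421 CPM in E4.5-Post, 1157 and 1087 CPM in E4.5-Ant, 1251, 1575 and 1257 CPM in E5.5 duct, and 2417, 2344 and 2606 CPM in E6.5 duct. Both were higher in E4.5-Ant libraries than in E4.5-Post (COL1A1 log2 fold change 1.01, SE 0.180, edgeR FDR 0.000829, and COL1A2 1.51, SE 0.107, edgeR FDR 2.46e-07), and neither was called between E5.5 duct and the anterior tissue. Both passed the FDR limit there, higher in E5.5 duct, and missed only the fold limit (COL1A1 0.523, edgeR FDR 0.043, and COL1A2 0.314, edgeR FDR 0.0412). COL1A1 was called higher there without E5.5 duct library 1 or 3. E5.5 duct library 2 was the highest of its group for both. COL16A1 (57.3 CPM in E6.5 duct) and the protease gene MMP23B (20.7 CPM) had the same calls.

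HTRA3, a secreted serine protease that cleaves matrix proteins, had 10.5, 8.79 and 9.33 CPM in E4.5-Post, 26.0 and 26.2 CPM in E4.5-Ant, 107, 123 and 168 CPM in E5.5 duct, and 272, 248 and 261 CPM in E6.5 duct. No tissues overlapped, and it was higher in E5.5 duct than in E4.5-Ant by 2.38 (SE 0.149, edgeR FDR 7.9e-08). LOXL4, a collagen cross-linking enzyme, averaged 5.84 CPM in E5.5 duct and 10.9 CPM in E6.5 duct and was called in none of the 3 comparisons. ECM1 was called only in E5.5 duct against E4.5-Ant (log2 fold change 0.67, SE 0.139, edgeR FDR 0.00232). Other collagen genes stayed outside the set, COL3A1 at a ratio of 1.16, COL5A1 at 1.08 and COL5A2 at 0.99. Of the 148 tested matrix genes outside the set, 69 were higher and 12 lower in E5.5 duct than in E4.5-Post, 27 were higher and 29 lower in E5.5 duct than in E4.5-Ant, and 60 rose and 4 fell in E4.5-Ant libraries relative to E4.5-Post. None of the 30 smooth muscle genes was in the set.

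TFPI2, a secreted inhibitor of serine proteases that is laid down in the matrix, had 54.1, 44.9 and 44.9 CPM in E4.5-Post, 90.3 and 78.2 CPM in E4.5-Ant, 146, 152 and 196 CPM in E5.5 duct, and 511, 573 and 558 CPM in E6.5 duct. The tissues were fully separated, with log2 fold changes of 0.795 in E4.5-Ant against E4.5-Post (SE 0.118, edgeR FDR 0.000205) and 0.997 in E5.5 duct against E4.5-Ant (SE 0.119, edgeR FDR 2.55e-05). The gene lies on chromosome 2 at 23301638 to 23307375 (GRCg6a), with 4 protein coding genes between it and COL1A2 at 23572787 to 23611758. NELL2, a secreted glycoprotein best known from neurons, had 116, 110 and 137 CPM in E4.5-Post, 84.1 and 96.2 CPM in E4.5-Ant, 230, 197 and 272 CPM in E5.5 duct, and 533, 525 and 540 CPM in E6.5 duct.

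The adhesion molecule list gave 3 of 226 genes, LRRN3, SLIT1 and UNC5D. SLIT1, a repellent ligand of ROBO receptors, averaged 44.1 CPM in E4.5-Post, 72.5 CPM in E4.5-Ant, 86.1 CPM in E5.5 duct and 167 CPM in E6.5 duct. UNC5D, a netrin receptor, averaged 11.9 CPM in E4.5-Post, 9.73 CPM in E4.5-Ant, 25.9 CPM in E5.5 duct and 60.8 CPM in E6.5 duct. SLIT1 was called between the E4.5 tissues and not between E5.5 duct and the anterior tissue, and UNC5D the other way round. LRRN3 and VCAM1, an adhesion receptor for integrins that was on no list, were called higher in E5.5 duct than in both E4.5 tissues. None of the 37 genes on the neuron and neural crest list was in the set, and their summed level was 750 to 807 CPM in E4.5-Post, 1166 to 1204 CPM in E4.5-Ant, 952 to 1045 CPM in E5.5 duct and 898 to 937 CPM in E6.5 duct.

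The set held 3 of 252 G protein-coupled receptors, 1 of 246 ion channels and pumps and 2 of 305 solute carriers. Over all protein coding genes the share was 0.532%. FSHR, the receptor of follicle-stimulating hormone known from gonads, had 1.90, 1.5 and 1.51 CPM in E4.5-Post, 1.13 and 1.72 CPM in E4.5-Ant, 2.78, 3.10 and 4.02 CPM in E5.5 duct, and 8.99, 10.6 and 10.5 CPM in E6.5 duct. It was higher in E5.5 duct than in E4.5-Ant by a log2 fold change of 1.26 (SE 0.225, edgeR FDR 0.000781). No gene of the gonad, adrenal and germ cell list was in the set, and its summed level was 52.0 to 63.9 CPM in E4.5-Post, 71.0 to 74.4 CPM in E4.5-Ant, 73.2 to 92.9 CPM in E5.5 duct and 99.8 to 106 CPM in E6.5 duct. That sum includes DMRT1, with means of 3.71 CPM in E4.5-Post and 18.3 CPM in E6.5 duct. The list holds neither FSHR nor NR0B1, which are both in the set. Of the 17 tested genes of the list, 5 were higher and 5 lower in E5.5 duct than in E4.5-Post. Against E4.5-Ant, 2 were higher and 4 lower in E5.5 duct. The part of gonadal tissue in the FSHR value was not tested. The other G protein-coupled receptors were HTR6, a serotonin receptor, and CXCR4, a chemokine receptor of migrating cells, with E6.5 means of 22 and 39.3 CPM.

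SLC17A8, the vesicular glutamate transporter VGLUT3, had 0.708, 0.572 and 0.704 CPM in E4.5-Post, 1.23 and 1.26 CPM in E4.5-Ant, 7.44, 8.12 and 12.7 CPM in E5.5 duct, and 37.3, 37.3 and 27.9 CPM in E6.5 duct. Its log2 fold change in E5.5 duct against E4.5-Post, 3.83 (SE 0.252, edgeR FDR 4.5e-08), was the third largest of the set. It came after HOXD13 and RNP, which was on no gene list here (4.35, SE 0.259, edgeR FDR 1.78e-08). SLC6A4, the serotonin transporter, averaged 5.37 CPM in E4.5-Post, 7.44 CPM in E4.5-Ant, 21.2 CPM in E5.5 duct and 44.5 CPM in E6.5 duct. ANO1, a chloride channel opened by calcium, had 16.2, 20 and 30 CPM in E5.5 duct and 66.0, 64.3 and 68.0 CPM in E6.5 duct, and was called in E5.5 duct against E4.5-Post alone. That call was lost without E5.5 duct library 3, and without E5.5 duct library 1 the gene was also called higher than in E4.5-Ant.

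Few genes of the set went down at an earlier boundary. PCSK1, a protease that cuts prohormones in secretory granules, had 0.820, 0.965 and 0.880 CPM in E4.5-Post, 8.43 and 8.41 CPM in E4.5-Ant, 3.72, 3.58 and 3.83 CPM in E5.5 duct, and 26.0, 27.0 and 22.1 CPM in E6.5 duct. It was the 1 gene called lower in E5.5 duct than in E4.5-Ant (log2 fold change -1.15, SE 0.118, edgeR FDR 6.15e-06), while it was higher in E4.5-Ant libraries than in E4.5-Post (3.22, SE 0.144, edgeR FDR 5.33e-09). UNCX and the GPI-anchored surface protein gene PSCA were lower in E4.5-Ant libraries than in E4.5-Post, by log2 fold changes of -0.75 (SE 0.238, edgeR FDR 0.0292) and -0.73 (SE 0.173, edgeR FDR 0.0057). The UNCX call was lost without E4.5-Ant library 1 (-0.29, edgeR FDR 0.371) and without E4.5-Post library 2 (-0.58, edgeR FDR 0.106), and the PSCA call without E4.5-Ant library 3 (-0.67, edgeR FDR 0.0536).

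For 13 genes none of the 3 earlier comparisons was called. They were DKK1, LOXL4, the complement gene C3, the muscle and bone peptide gene OSTN, the kinase gene PLK2, the glycosyltransferase gene MGAT1, the tumour suppressor gene RASSF1, SLA2, CNNM1, CNKSR2L, DPYSL5L and the unnamed LOC107050412 and LOC424918. PLK2 had 40.8, 39.9 and 36.9 CPM in E4.5-Post, 43.4 and 41.8 CPM in E4.5-Ant, 50, 49.3 and 69.0 CPM in E5.5 duct, and 88.7, 116 and 108 CPM in E6.5 duct. C3 had 2.83, 3.79 and 3.03 CPM in E4.5-Post, 4.94 and 4.27 CPM in E4.5-Ant, 3.53, 4.09 and 4.53 CPM in E5.5 duct, and 9.88, 10.1 and 8.37 CPM in E6.5 duct. DKK1 and OSTN had the highest ratios among them, 3.29 and 2.57. PLK2, LOC424918, CNKSR2L, DPYSL5L, SLA2 and C3 passed the FDR limit in an earlier comparison and missed only the fold limit. PLK2 was higher in E5.5 duct than in E4.5-Post by a log2 fold change of 0.527 (SE 0.117, edgeR FDR 0.00164), and SLA2 was lower. PLK2 was called there without E5.5 duct library 1 or 2. C3 was called higher in E4.5-Ant against E4.5-Post without E4.5-Post library 2. OSTN was called lower in E5.5 duct than in both E4.5 tissues without E5.5 duct library 3.

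The 2 largest ratios belonged to hemoglobin genes, which are known as markers of red blood cells. The part of blood in these values was not tested. HBBA, the adult β-globin, had 3.80, 2.86 and 2.64 CPM in E4.5-Post, 4.69 and 4.14 CPM in E4.5-Ant, 8.31, 25.8 and 45.8 CPM in E5.5 duct, and 282, 299 and 226 CPM in E6.5 duct. Its neighbour HBE1 averaged 1.85 CPM in E4.5-Post, 1.77 CPM in E4.5-Ant, 4.46 CPM in E5.5 duct and 41.0 CPM in E6.5 duct. The pair lies 1806 bases apart on chromosome 1 (HBBA at 197279998 to 197281517, GRCg6a, minus strand), between the embryonic β-globin genes HBE and HBBR. HBE averaged 390, 361, 129 and 67.6 CPM and HBBR 734, 689, 246 and 107 CPM in E4.5-Post, E4.5-Ant, E5.5 duct and E6.5 duct, in the opposite direction to the members. Reads of these close paralogs may be assigned in part to the wrong gene.

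The sum over the 7 hemoglobin genes did not peak with HBBA, being 3207 CPM in E4.5-Post, 3117 CPM in E4.5-Ant, 1055 CPM in E5.5 duct and 1100 CPM in E6.5 duct. Within that sum HBBA took 0.0875% to 0.102% in E4.5-Post, 0.141% and 0.142% in E4.5-Ant, 0.621%, 3.14% and 4.55% in E5.5 duct libraries 1, 2 and 3, and 22% to 25.6% in E6.5 duct. HBZ, an embryonic α-type globin, took 42.0% to 43.5% in E4.5-Post and 4.69% to 6.46% in E6.5 duct. HBA1 took 13.5% to 14.5% in E4.5-Post and 33% to 33.6% in E6.5 duct. HBM took 7.95% to 8.29% and 16.1% to 18%. HBA1 averaged 451 CPM in E4.5-Post, 210 CPM in E5.5 duct and 367 CPM in E6.5 duct, and HBM 260, 109 and 188 CPM. Apart from HBBA and HBE1, the genes of the red blood cell list, which had 27 measured genes in all, were outside the set. E5.5 duct library 3 was the highest and library 1 the lowest in HBBA share, as they were in the median level of the whole set, and whether these have a common source was not tested.

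**Figure D5:**
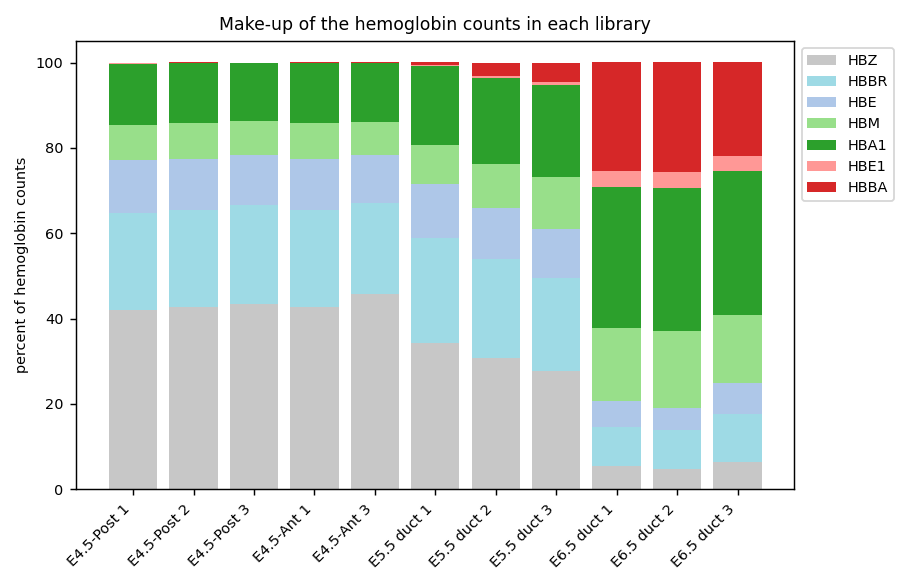
Share of each of the 7 hemoglobin genes in the summed hemoglobin counts (stacked bars, percent) in each of the 11 libraries. HBBA reaches 22% to 25.6% in the E6.5 libraries and at most 4.55% in any other, while HBZ shrinks to 4.69% to 6.46%.

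Reads had been counted over whole genes on the strand given by the library kit. 6 genes of the set overlap a gene on their own strand (TFPI2, METTL11B, SLA2, HTR6, THY1 and PDE1B), where reads from the shared stretch cannot be assigned, and 20 overlap one on the other strand. 8 genes of the set have only LOC identifiers in the count table, and 34 of the 93 stand on at least 1 of the gene lists. The replicate spread within E6.5 duct was wider for the set than for all genes, with a median coefficient of variation of 8.95% against 5.52% over all genes at 5 CPM or more, from 1.09% for RUNX1 to 37.7% for AVDL. AVDL, named for its likeness to the egg-white protein avidin, had 79.6, 150 and 180 CPM in the 3 E6.5 libraries.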

How the data were processed

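Per the file headers and the study's methods, the authors sequenced 12 stranded mRNA libraries (4 tissues with 3 libraries each), aligned the reads with STAR to the chicken build GRCg6a and counted them with featureCounts 1.6.2 over whole genes with the reverse strand setting. The deposited values are raw counts per gene, and the table limited to protein coding genes was used. CPM, group means, ratios and coefficients of variation were computed from it with pandas 2.3.3, leaving out E4.5-Ant library 2. Counts of 11 libraries were fitted with edgeR 4.0.16 (quasi-likelihood test, TMM scaling, filterByExpr with a minimum count of 10, all 4 tissues in one fit, p-values adjusted by Benjamini-Hochberg over 14362 genes). TMM factors were 0.971 to 1.02. The scripts were tested on simulated data. DESeq2 1.42.0 and limma 3.58.1 (voom), other scalings, filters and limits, and leaving out each library were the alternatives. Library numbers are those in the column names, and p-values measure the spread between pools.

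The 93 genes and the gene lists were chosen with earlier results of these data known. Named genes were the 10 highest in E6.5 duct, the 10 with the largest ratio, the 3 largest called changes in each direction of each tested comparison, and list members, and other names were picked after their values were seen. Chromosomes were named by matching gene symbols to RefSeq annotation of GRCg7b, and coordinates are those of the deposited GRCg6a table. Transcript lengths were not used here, which limits the sums over gene lists, the shares of the hemoglobin counts and the choice of the 10 highest genes. Apart from these, levels are not compared between genes. 1 gene of the set is counted but not reported by name here.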

Additional observations from a re-analysis of the deposited data

Results flagged for a closer look

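The omitted E4.5-Ant library 2, which enters none of the comparisons, lay outside the range of the kept E4.5-Ant libraries for 78 of the 93 genes, above both for 20 and below both for 58, against 90.9% of all genes at 5 CPM or more in E6.5 duct that lay outside. RUNX1, for example, stood at 42.8 CPM in it, against 26.6 and 22.1 CPM, and APBB1IP at 14.1 CPM, against 6.24 and 5.27 CPM. With this library in the group means the set held 95 genes, among them all 93. For 2 genes the E6.5 duct mean was under 1.8 times the level in this library alone. COL1A2 stood at 1403 CPM in it, against 1157 and 1087 CPM in the kept E4.5-Ant libraries, and C1QTNF7 at 5.38 CPM, against 2.43 and 2.26 CPM. All 3 E6.5 libraries still lay above it for all 93 genes. The E6.5 mean was at least 1.8 times this library for the other 91 genes, and for 8.91% of all genes at 5 CPM or more in E6.5 duct. The library also had 42.1% of its counts in ribosomal RNA genes, and the part of that in the values was not tested.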

How the results depend on the processing

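Of 339 alternative values, 325 kept the direction and the side of the threshold, or stayed within 1.5 times the main count. With the fold limit of the choice at 1.5 times or 2.5 times the set held 271 or 20 genes, and with the level limit at 1 CPM it held 158. Without 1 library at a time it held 78 to 125 genes, the extremes coming without E5.5 duct library 1 and without E5.5 duct library 3. Of the 93 genes, 74, 81 and 91 stayed in without E5.5 duct library 1, 2 and 3. Without E6.5 duct library 1, 2 and 3, 91, 80 and 82 stayed in. In these fits 91 to 92 of the 93 had all E6.5 libraries above all others. Under the test against the fold limit itself, 15 genes rose and 0 fell in E4.5-Ant relative to E4.5-Post, and with 2 tissues per fit 1 was lower. Without 1 library at a time the genes called lower numbered 0 to 1 in E5.5 duct against E4.5-Post, 1 to 2 in E5.5 duct against E4.5-Ant and 1 to 2 in E4.5-Ant against E4.5-Post. Counts of higher genes were 76 to 79, 47 to 57 and 31 to 39 in these comparisons. Without E4.5-Ant library 1 or 3 that tissue keeps 1 library, which is then assumed to vary like the others. The cause of these changes was not tested, apart from the limits, which change the choice by construction. Both E4.5 tissues came from the same pools, but the labels do not say that a column number marks a pool, and over 14362 genes the difference between libraries 1 and 3 correlated at 0.03 between these tissues. A fit with the column number of the E4.5 libraries as a replicate block, added after seeing the data, gave 34 genes higher and 2 lower in E4.5-Ant against E4.5-Post, 32 of the 34 among the main 36. Low E4.5 counts limit the fold changes of HOXD12 and HOXD13.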

Other observations

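Egg-white genes were looked at after 2 members of the set had been seen to carry such names, so they are given as values only. LOC395381, which RefSeq names OVOA (alpha-ovomucin, a gel-forming egg-white protein), had 9.32, 7.36 and 7.85 CPM in E4.5-Post, 5.92 and 6.65 CPM in E4.5-Ant, 31.7, 38.4 and 53.6 CPM in E5.5 duct, and 79.3, 87.7 and 79.8 CPM in E6.5 duct. AVDL averaged 6.22, 17.8, 42.2 and 136 CPM in E4.5-Post, E4.5-Ant, E5.5 duct and E6.5 duct. The main egg-white genes of the laying hen were at or near 0 in E6.5 duct, OVAL (ovalbumin) at 0.198 CPM, LYZ (lysozyme) at 0.235 CPM and AVD (avidin) at 0.112 CPM, and TF, which encodes ovotransferrin, averaged 79.5 CPM in E6.5 duct and 95.1 CPM in E5.5 duct, with 243 CPM in E4.5-Post and 224 CPM in E4.5-Ant.

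MUC4L, a mucin-like gene, had 64.7, 56.4 and 47.3 CPM in E4.5-Post, 45.5 and 48.9 CPM in E4.5-Ant, 119, 182 and 124 CPM in E5.5 duct, and 298, 294 and 288 CPM in E6.5 duct. It lies next to another gene of the set, LOC424918, with 6610 bases between them on chromosome 9. HOXD12 and HOXD13, NECAB2 and OSGIN1, and DMRT3 and DMRT2 were further pairs of members with no protein coding gene between them.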
